A study of Rattus norvegicus with 9 samples.

Results

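miR-708 is the microRNA named in the title of this series, which links ageing and osteoarthritic cartilage to a lack of its 5p arm. Described here are the rows for the 2 arms of the hairpin, rno-miR-708-5p and rno-miR-708-3p, chosen by name, 2 of the 726 rows of the deposited table. Small RNA was sequenced from wild-type rat cartilage progenitor cells, grown as primary cultures from condylar cartilage, in 3 groups of 3 libraries. The P9 group was cultured to passage 9 and served as the model of replicative senescence, the lasting stop of division that serial passage brings. The FFSS group held passage 3 cells under flow fluid shear stress, the drag of moving liquid over a cell layer, and served as the model of mechanically induced degeneration. The P3 group held passage 3 cells and was the control. All groups shared the tissue, the wild-type genotype and the culture in vitro. The strength and duration of the flow, the age of the rats and whether replicates were separate cultures are not given in the labels, so the p-values speak of the spread among these libraries, and that spread may be technical.

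A microRNA hairpin is cut by Drosha and Dicer into a short duplex, and 1 strand of it, from the 5p or the 3p side of the hairpin, is loaded into an Argonaute protein and guides it to mRNAs. Target choice rests mainly on the seed, bases 2 to 8 of the mature strand, so the arms of a hairpin recognise different mRNAs. The miR-708 hairpin is known to lie in an intron of Tenm4, which encodes the transmembrane protein teneurin-4. In mouse cells it is induced together with that gene by the stress factor CHOP during endoplasmic reticulum stress. In human cancer cells miR-708-5p has been reported to repress neuronatin, a regulator of endoplasmic reticulum calcium.

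The mature sequences of both arms are given because each arm is measured on its own below, and those of miR-28 because its 5p arm carries the same seed as miR-708-5p. They come from RefSeq, build GRCr8, with the seed in capitals, while the submitters' processing notes name Rnor_6.0 for the reads.
miR-708-5p: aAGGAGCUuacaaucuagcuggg
miR-708-3p: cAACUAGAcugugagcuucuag
miR-28-5p: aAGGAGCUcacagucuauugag
miR-28-3p: cACUAGAUugugagcuccugga
On GRCr8, miR-708-5p lies at chr1:160011168-160011190 and miR-708-3p at chr1:160011214-160011235, both on the + strand and within the span of Tenm4, which is transcribed from the same strand. The miR-28 arms lie on the - strand, miR-28-5p at chr11:89480303-89480324 and miR-28-3p at chr11:89480263-89480284. Among 693 mature rat names in the RefSeq table, miR-28-5p was the only other one with the seed of miR-708-5p, and 0 others had the seed of miR-708-3p. Counted from the 5′ end of miR-708-5p, its sequence and that of miR-28-5p were identical at 16 of 22 positions, with U9C, A13G, G18U, C19U, U20G and G21A as the substitutions. Folded as a duplex of the mature strands, 18 of the 23 bases of miR-708-5p paired with 18 of the 22 bases of miR-708-3p, at a predicted -23.7 kcal/mol.

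The libraries held 2878910 to 8862560 miRNA reads, and FFSS replicates 1 and 3 were the shallowest. Levels are given as CPM, reads scaled to an equal total per library. Between 169 and 1372 reads fell on the 2 arms of miR-708 in a library. P9 replicate 3 stood apart: across 439 miRNAs its log2 level correlated at 0.963 and 0.970 with the other P9 libraries, which reached 0.995 with each other. It correlated more closely with P3 replicate 2 (0.976) than with either. With the other P3 libraries it correlated at 0.964 and 0.955, and with the FFSS libraries at 0.921 to 0.955. Single rows differed: miR-34c-5p had 508 CPM in it, 1350 and 1108 CPM in the other P9 libraries, and 83.4 to 234 CPM in FFSS and P3. miR-151-3p in it lay with the FFSS libraries, as given below. Whether P9 replicate 3 is labelled correctly was not tested. All 4 markers of cartilage in the list used, the arms of miR-140 and miR-455, were present in all 9 libraries and summed to 2590 to 3847 CPM in P9, 6077 to 7202 CPM in FFSS and 4150 to 7370 CPM in P3.

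The output of the miR-708 hairpin as a whole fell at passage 9. Summed over both arms, the P9 libraries had 33.0, 30.6 and 27.8 CPM, against 163, 119 and 140.0 CPM in the P3 libraries. All P9 libraries lay below all P3 libraries, and the P9 values had a coefficient of variation of 8.56%. Such a separation held for 14.1% of 439 single miRNAs, and its share among summed hairpins was not computed. The mean was 30.5 ± 2.61 CPM in P9 and 141 ± 22.0 CPM in P3 (SD, n = 3 each), a 4.16-fold lower level in P9 by edgeR's quasi-likelihood test on counts summed per hairpin (log2 fold change -2.06, SE 0.37, adjusted p = 0.00336, Benjamini-Hochberg over 323 hairpins and single rows). Of these 323, 7.74% were called at an adjusted p under 0.05 and 3.41% were called lower, and miR-708 ranked 8th from the lowest log2 fold change and 11th by p. The call held in each of 20 alternative settings, with log2 fold changes of -2.21 to -1.89 and adjusted p up to 0.0145. In bulk samples, fewer cells with miR-708 and less miR-708 per cell cannot be told apart.

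**Figure D1:**
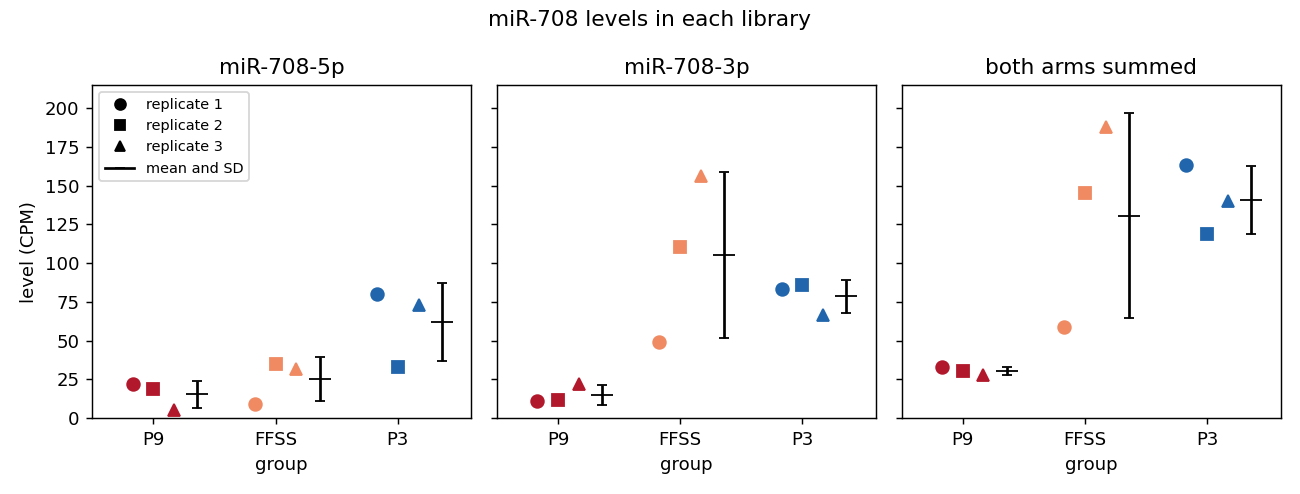
Level in CPM (y axis) of miR-708-5p, miR-708-3p and their sum in each library, by group (x axis); symbols are replicates, and the bar beside each group is the mean with its SD (n = 3). The summed P9 libraries sit between 27.8 and 33.0 CPM, below all FFSS and P3 libraries, while the single arms spread more widely within groups.

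Each arm was lower at passage 9 as well. miR-708-3p had 10.9, 11.7 and 22.1 CPM in the P9 libraries, against 83.1, 86.0 and 66.7 CPM in the P3 libraries. The groups did not overlap, P9 replicate 3 was the highest of its group, and the P3 libraries were close together. The mean level was 14.9 ± 6.27 CPM in P9 and 78.6 ± 10.4 CPM in P3 (SD, n = 3 each; log2 fold change -2.31, SE 0.43, edgeR adjusted p = 0.00395 over 439 miRNAs). It ranked 7th from the lowest log2 fold change among the 439, of which 7.29% were called, 3.87% higher and 3.42% lower. The groups did not overlap for 25.3% of them, and all P9 libraries lay below all P3 libraries for 14.1%. This call held in all 20 alternatives, with adjusted p up to 0.0402, and without P9 replicate 3 the log2 fold change was -2.78 (SE 0.41, adjusted p = 3.42e-04).

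miR-708-5p had 22.1, 18.9 and 5.63 CPM in the P9 libraries, against 80.0, 33.1 and 73.3 CPM in the P3 libraries. P9 replicate 3 was here the lowest of its group rather than the highest, and P3 replicate 2 lay near the FFSS libraries and well below the other P3 libraries. The groups still did not overlap. The means were 15.5 ± 8.73 CPM in P9 and 62.2 ± 25.4 CPM in P3 (SD, n = 3 each; log2 fold change -1.94, SE 0.53, edgeR adjusted p = 0.0419 over 439 miRNAs), and the median SE over all miRNAs in this comparison was 0.39. The call was lost in 8 of 20 alternatives, among them leaving out P9 replicate 1 (adjusted p = 0.0565) or 2 (0.0797), FFSS replicate 3 (0.0695), or P3 replicate 1 (0.150) or 3 (0.138), and the direction held in all of them.

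miR-708 was among the few hairpins called on both arms. Of 120 hairpins with both arms tested, 5 (4.17%) had both arms called lower at passage 9: miR-708, miR-195, miR-298, miR-378a and miR-3557. The counts of miR-378a-3p and miR-3557-5p differed by at most 2 reads in any library, so these 2 hairpins share the reads of 1 arm. Their other arms were close as well, with 33.3, 16.2 and 33.1 CPM in P3 for miR-378a-5p and 31.9, 14.2 and 29.3 CPM for miR-3557-3p. The 5 hairpins are therefore not 5 separate measurements. Another 4 hairpins, miR-34b, miR-34c, miR-325 and miR-384, had both arms called higher, and 7 had 1 arm called.

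Under shear stress neither arm nor their sum differed from P3 past the test. miR-708-5p had 9.38, 34.9 and 31.8 CPM in the FFSS libraries, against 80.0, 33.1 and 73.3 CPM in the P3 libraries. FFSS replicate 1, the shallowest library, held only 27 reads of this arm, an exact Poisson 95% interval of 6.18 to 13.6 CPM, and the groups overlapped through P3 replicate 2. The mean was 25.4 ± 13.9 CPM in FFSS and 62.2 ± 25.4 CPM in P3 (SD, n = 3 each), and the difference did not pass the test (log2 fold change -1.32, SE 0.52, edgeR adjusted p = 0.0898), where 20.5% of 439 miRNAs were called, 6.83% higher and 13.7% lower. A fit of only FFSS and P3 gave an adjusted p of 0.0428, DESeq2 0.0485 and a fit with no filter 0.0437, and leaving out P9 replicate 3 gave 0.0174, all past the threshold. The other 16 of 20 alternatives did not pass, with adjusted p up to 0.194.

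miR-708-3p had 49.3, 110.4 and 156 CPM in the FFSS libraries, against 83.1, 86.0 and 66.7 CPM in the P3 libraries. FFSS replicate 1 was below and the other FFSS libraries above every P3 library. The means were 105 ± 53.7 CPM in FFSS and 78.6 ± 10.4 CPM in P3 (SD, n = 3 each; log2 fold change 0.33, SE 0.41, edgeR adjusted p = 0.564). The summed arms came to 58.7, 145 and 188 CPM in FFSS, against 163, 119 and 140.0 CPM in P3, overlapping groups with a log2 fold change of -0.20 (SE 0.35, edgeR adjusted p = 0.720), where 18.6% of hairpins were called. That value turned to 0.069 with upper-quartile factors, a scaling that moved the median over all hairpins by 0.22, and to 0.083 without FFSS replicate 1. A test that misses the threshold does not show that the levels were equal.

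Set directly against each other, the P9 and FFSS groups differed in miR-708-3p and in the sum but not past the test in miR-708-5p. miR-708-3p averaged 14.9 ± 6.27 CPM in P9 and 105 ± 53.7 CPM in FFSS (SD, n = 3 each; log2 fold change -2.64, SE 0.43, edgeR adjusted p = 7.24e-04), and all P9 libraries lay below all FFSS libraries. In this comparison 34.4% of 439 miRNAs were called, 11.8% of all as lower in P9, so calls were common. The groups did not overlap for 42.8% in either direction, and all P9 libraries lay below all FFSS libraries for 19.8%. The summed arms were lower in P9 by 1.86 on the log2 scale (log2 fold change -1.86, SE 0.36, edgeR adjusted p = 0.00267), as 8.67% of hairpins were called lower. miR-708-5p had a log2 fold change of -0.63 (SE 0.52, adjusted p = 0.359).

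The order of levels therefore differed by arm. For miR-708-5p the group means ran from 15.5 CPM in P9 over 25.4 CPM in FFSS to 62.2 CPM in P3, and the neighbours P9 and FFSS overlapped, as did FFSS and P3. For miR-708-3p the mean was lowest in P9, at 14.9 CPM, and highest in FFSS, at 105 CPM, with 78.6 CPM in P3 between them. Here FFSS and P3 overlapped, while all P9 libraries lay below both. The ranks among the 726 rows give the same picture. miR-708-3p ranked between 210th and 269th in the P9 libraries, between 122nd and 165th in FFSS and between 145th and 155th in P3. miR-708-5p ranked between 234th and 311th in P9, between 190th and 269th in FFSS and between 151st and 189th in P3.

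**Figure D2:**
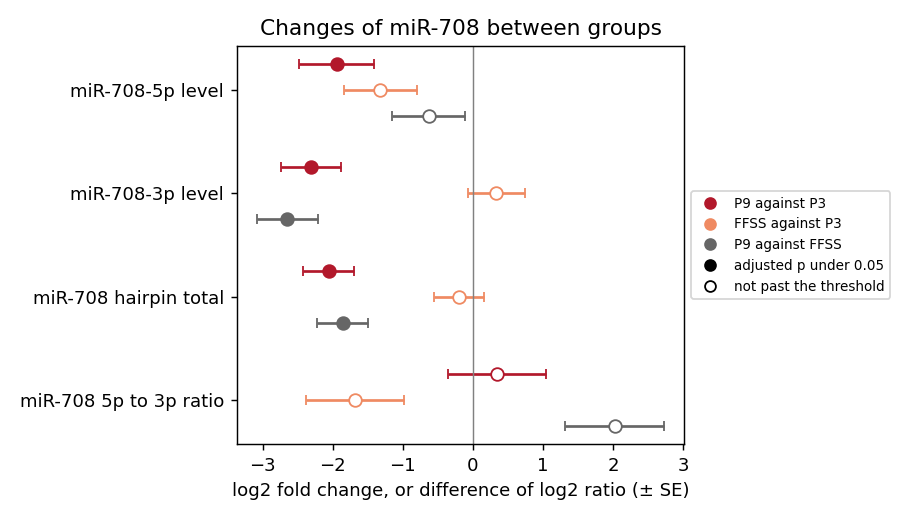
Log2 fold change of each miR-708 level, or difference of the log2 5p to 3p ratio, with its SE (x axis) for the 3 comparisons of groups; filled points passed an adjusted p of 0.05. Both arms and their sum lie below 0 for P9 against P3, while for FFSS against P3 all points are open and miR-708-3p lies at 0.33.

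The balance of the arms was read within each library, where it does not depend on scaling between libraries. The 5p arm took 66.9%, 61.8% and 20.3% of miR-708 reads in the P9 libraries, 16.0%, 24.0% and 16.9% in the FFSS libraries, and 49.1%, 27.8% and 52.4% in the P3 libraries. The exact binomial 95% intervals, which cover counting error only, were 60.7% to 72.7%, 55.4% to 68.0% and 15.2% to 26.1% in P9. They were 10.8% to 22.4%, 21.4% to 26.7% and 14.3% to 19.8% in FFSS, and 46.4% to 51.7%, 24.9% to 30.8% and 49.6% to 55.2% in P3. P9 replicate 3 thus lay within the range of the FFSS libraries and apart from its own group by far more than counting error, and P3 replicate 2 lay between FFSS and the other P3 libraries.

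**Figure D3:**
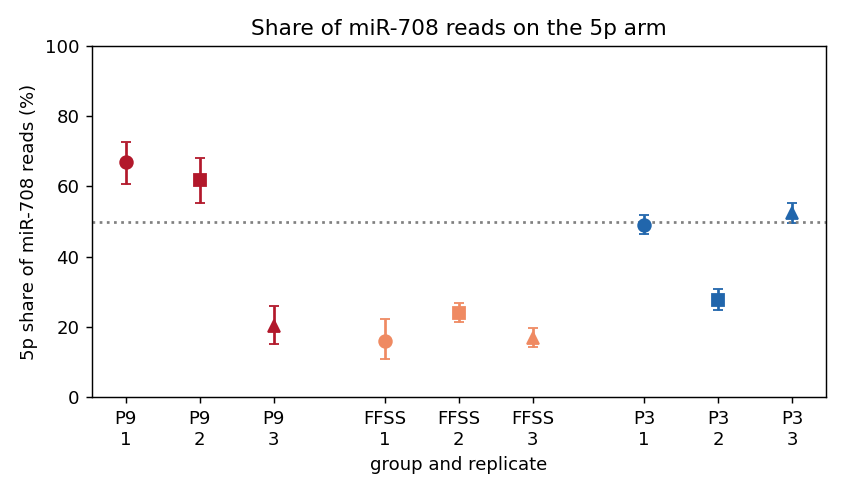
Percent of miR-708 reads on the 5p arm (y axis) in each library (x axis, group and replicate), with exact binomial 95% intervals as bars and a dotted line at equal arms. The 3 FFSS libraries sit between 16.0% and 24.0%, and P9 replicate 3 is at 20.3% while the other P9 libraries are above 60%.

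All FFSS libraries had a lower 5p share than all P3 libraries, but the difference did not pass the test across hairpins. The mean log2 ratio of 5p to 3p counts was -2.11 ± 0.39 in FFSS and -0.43 ± 0.82 in P3 (SD, n = 3 each), a difference of -1.68 (SE 0.70, limma adjusted p = 0.130 over 89 hairpins whose arms both averaged 20 counts or more). Of these hairpins 4.49% were called, 31.5% had an unadjusted p under 0.05 and 44.9% had groups that did not overlap, so the separation was not unusual among them. The difference passed without P9 replicate 3 (adjusted p = 0.00868), whose spread enters the shared fit, and with only the FFSS and P3 libraries fitted (adjusted p = 0.0199). It did not pass in the other 14 of 16 alternatives, with limma adjusted p up to 0.359. The 4 called hairpins were miR-376b (2.30), miR-152 (-1.93), miR-362 (-1.93) and miR-34c (-1.75), and miR-708 had the 5th lowest difference and the 24th smallest p. The fifth hairpin by p, miR-466b, stood at -1.66 (limma adjusted p = 0.0710).

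Between P9 and P3 the ratio overlapped. The mean log2 ratio was -0.086 ± 1.63 in P9 and -0.43 ± 0.82 in P3 (SD, n = 3 each), a difference of 0.34 (SE 0.70, limma adjusted p = 0.989), which was 1.28 without P9 replicate 3 (SE 0.45, adjusted p = 0.317). It turned negative without P9 replicate 1 (-0.20), P9 replicate 2 (-0.045) or P3 replicate 2 (-0.13). With limma 0 of 89 hairpins were called here (0%), 8.99% had groups that did not overlap, and 2 (2.25%), miR-181c and miR-672, had an unadjusted p under 0.05; let-7e, miR-324 and miR-136 came next. Between P9 and FFSS the difference for miR-708 was 2.02 (SE 0.70, limma adjusted p = 0.0984), where the groups overlapped, 7.87% of hairpins were called and 30.3% did not overlap. The calls were led by miR-152, miR-376b, miR-34c, miR-362 and miR-322. Without P9 replicate 3, which had the lowest 5p share of its group, the difference for miR-708 was 2.96 (SE 0.45, limma adjusted p = 2.04e-04). It did not pass in the other 15 of 16 alternatives, with limma adjusted p up to 0.315.

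**Figure D4:**
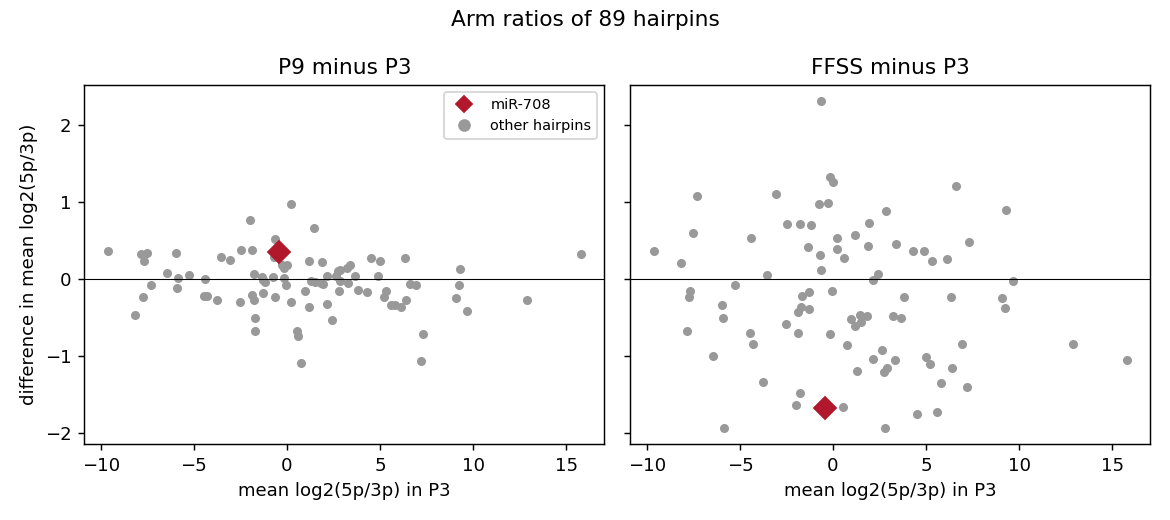
Difference in the mean log2 5p to 3p ratio (y axis) of P9 minus P3 (left) and FFSS minus P3 (right) against the mean log2 ratio in P3 (x axis) for 89 hairpins, with miR-708 as a diamond. miR-708 lies near equal arms in P3, at -0.43, and at 0.34 for P9 and -1.68 for FFSS.

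The arm ratio of miR-708 lay inside a wide range, and its spread over libraries was wider than the median in P9 and P3 but not in FFSS. Over the 89 hairpins the mean log2 ratio in P3 ran from 15.8 to -9.62. In P3 the mean log2 ratio of miR-708 ranked 54th of 89 from the most 5p, between miR-345 (-0.24), miR-329 (-0.16) and miR-369 (-0.15) above and miR-423 (-0.63), miR-376b (-0.63) and miR-503 (-0.70) below. Over all 9 libraries its log2 ratio spanned 3.39, against a median of 1.90 over hairpins, the 6th widest. Within P3 alone it spanned 1.51, against a median of 0.66, the 2nd widest, and within P9 2.98, against 0.96. Within FFSS it spanned 0.71, less than the median of 0.94. An exact permutation test over the 9 libraries gave p = 0.161 for the 5p share between the 3 groups and p = 0.0321 for the summed level, where the smallest p that 1680 assignments allow is 0.00357. For the share, p was 0.00714 without P9 replicate 3. For the sum, p was 0.0679 without P9 replicate 1, without P9 replicate 2 or without P9 replicate 3, which shortens that group to 2 libraries.

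Markers of other cell types differed between libraries, some along with the arm balance and some not. The libraries with the 4 lowest 5p shares, P9 replicate 3 and the 3 FFSS libraries, had the 4 highest levels of miR-122-5p, a microRNA of liver, with 22.9 CPM and 15.5 to 51.4 CPM, against 3.43 to 11.7 CPM in the other 5. They also had the 4 highest levels of the muscle microRNA miR-1b, with 462 CPM and 157 to 457 CPM, against 112 to 126 CPM, and of the endothelial miR-126a-3p, with 489 CPM and 551 to 686 CPM, against 269 to 399 CPM. Other members of these lists did not follow, since miR-126a-5p was lowest in P9 replicate 3, at 1.59 CPM, and miR-206-3p was 9.78 CPM there, below the 18.4 CPM of P9 replicate 1. Of the muscle list 4 of 5 members were tested, of endothelium 2 of 2 and of liver 1 of 1, with 0 called in any comparison. Over all miRNAs 7.29% were called in P9 against P3, 20.5% in FFSS against P3 and 34.4% in P9 against FFSS, so 0 calls among so few members says little. In sums, muscle came to 534 CPM in P9 replicate 3, 189 to 538 CPM in FFSS and 141 to 167 CPM in the others, and endothelium to 491 CPM, 556 to 695 CPM and 275 to 406 CPM.

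The sums of the blood, epithelium and nervous system lists did not track the share, though some members did. Blood miR-142-5p had 7.95 CPM in P9 replicate 3 and 10.3 to 17.2 CPM in FFSS, against 2.23 to 5.45 CPM in the others. Epithelial miR-200b-3p had 8.32 CPM and 7.34 to 19.8 CPM, against 3.27 to 5.97 CPM. Other members did not, such as miR-200a-3p, lowest in P9 replicate 3 at 3.06 CPM. The blood list (7 of 7) summed to 304 CPM in P9 replicate 2 and 311 CPM in P9 replicate 3, whose 5p shares were 61.8% and 20.3%. Its range was 73.1 to 311 CPM in P9, 171 to 603 CPM in FFSS and 79.5 to 160.0 CPM in P3. The epithelium list (8 of 8) was lowest in P9 replicate 3, with 25.8 to 77.9 CPM in P9, 90.7 to 227 CPM in FFSS and 81.5 to 102 CPM in P3. The nervous system list (6 of 7) came to 964 to 2368 CPM in P9, 492 to 1565 CPM in FFSS and 725 to 1522 CPM in P3. Of 5 blood members tested, 1 was called higher in FFSS against P3 and 1 lower in P9 against FFSS. Epithelium gave the same numbers of calls among 6 tested, and the nervous system list 0 among 4 tested. Over all miRNAs 6.83% were called higher in FFSS against P3 and 11.8% lower in P9 against FFSS. In P9 replicate 3 the epithelial miR-205, miR-429 and miR-141-3p and the blood miR-144-3p and miR-223-3p were at 0. Over 89 hairpins, the deviations of the log2 arm ratio in P9 replicate 3 correlated at -0.68 and -0.41 with those of P9 replicates 1 and 2, which correlated at 0.76. With those of FFSS replicates 1, 2 and 3 they correlated at only 0.11, -0.047 and -0.12, so the likeness to FFSS seen for miR-708 did not extend over hairpins. The part of these differences in the miR-708 results was not tested.

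miR-28-5p, which shares the seed of miR-708-5p, did not fall with it. It had 229, 145 and 172 CPM in the P9 libraries, 135, 222 and 208 CPM in the FFSS libraries, and 124, 126 and 107 CPM in the P3 libraries. All P9 and all FFSS libraries lay above all P3 libraries. Counting both directions, 25.3% and 41.5% of miRNAs did not overlap in these comparisons, and 14.1% and 22.6% of miRNAs lay the other way, below P3. For miR-28-5p neither difference passed the test (log2 fold change 0.65, SE 0.29, edgeR adjusted p = 0.252 for P9 against P3, and 0.61, SE 0.29, adjusted p = 0.147 for FFSS against P3). Rows without a RefSeq sequence were not searched for this seed. Of the reads of these 2 microRNAs, miR-708-5p made up 8.77%, 11.5% and 3.17% in the P9 libraries. It made up 6.47%, 13.6% and 13.3% in the FFSS libraries, and 39.2%, 20.8% and 40.7% in the P3 libraries. Every P9 and FFSS library was below every P3 library in this share, a measure chosen after the values were seen and given without a test. Together the 2 microRNAs came to 198 ± 47.0 CPM in P9, 214 ± 60.1 CPM in FFSS and 181 ± 22.5 CPM in P3 (SD, n = 3 each), with overlapping groups.

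**Figure D5:**
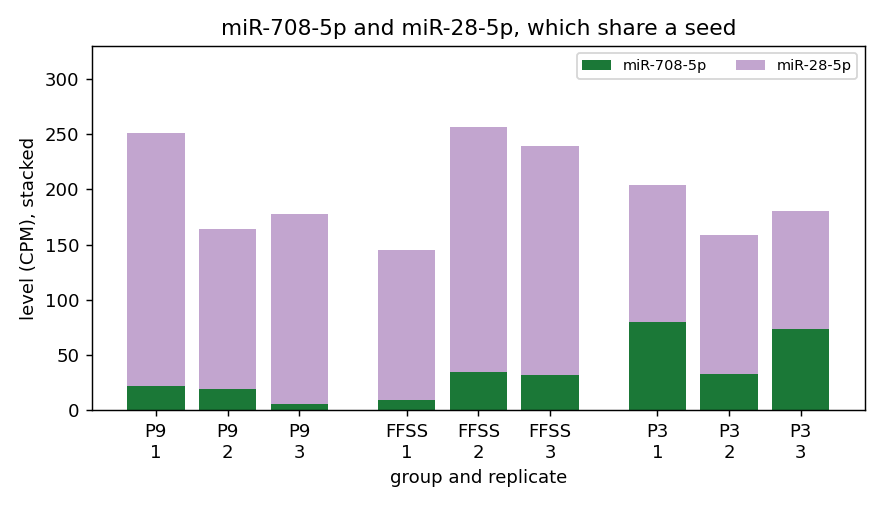
Level in CPM (y axis, stacked) of miR-708-5p and miR-28-5p in each library (x axis, group and replicate). The green part, miR-708-5p, is 33.1 CPM or more in P3 and 22.1 CPM or less in P9, while the full bars overlap between groups.

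miR-28-3p and the arms of miR-151 are given because these hairpins are commonly placed in 1 family with miR-708. The seed of miR-28-3p, ACUAGAU, equals neither seed of miR-708 but overlaps AACUAGA, that of miR-708-3p, when shifted by 1 base. No sequence of miR-151 was at hand, so its seeds were not compared. miR-28-3p had 492, 447 and 387 CPM in P9, 429, 287 and 334 CPM in FFSS and 327, 263 and 303 CPM in P3, and its log2 fold changes of 0.63 in P9 and 0.21 in FFSS did not pass the test (edgeR adjusted p = 0.252 and 0.589). miR-151-3p had 539, 560.2 and 2132 CPM in P9, 2258, 2141 and 3255 CPM in FFSS and 1372, 1361 and 834 CPM in P3, so that P9 replicate 3 again lay with the FFSS libraries. Its log2 fold changes against P3 were -0.024 in P9 and 1.04 in FFSS (edgeR adjusted p = 0.989 and 0.138). The row of miR-151-5p was identical to that of miR-3586-3p in every library and stood at -0.55 in P9 and 0.38 in FFSS (edgeR adjusted p = 0.456 and 0.388). It was lower in P9 than in FFSS (log2 fold change -0.93, SE 0.32, edgeR adjusted p = 0.0404), a call that held in 2 of the 9 fits that leave out 1 library. That made 1 of 4 called in that comparison, where 34.4% of all miRNAs were called, and 0 of 4 in the others.

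The microRNAs whose log2 level followed an arm most closely over the 9 libraries differed between the arms. Among 234 other miRNAs of at least 20 CPM, those most like miR-708-5p were miR-140-5p (Pearson r = 0.92), miR-186-5p (0.89), miR-148b-3p (0.89), miR-532-5p (0.88) and miR-27b-3p (0.86). miR-140-5p, a microRNA typical of chondrocytes, had 414, 410.4 and 269 CPM in P9, 371, 950.3 and 759 CPM in FFSS and 950.5, 615 and 912 CPM in P3. It shared with miR-708-5p the low value of FFSS replicate 1, and P9 replicate 3 and P3 replicate 2 were the lowest of their groups. Those most like miR-708-3p were miR-423-5p (r = 0.94), miR-149-5p (0.94), miR-26a-5p (0.93), miR-195-3p (0.92) and let-7b-5p (0.91). miR-149-5p had 66.6, 68.0 and 394 CPM in P9, 881, 1866 and 2073 CPM in FFSS and 750.1, 551 and 572 CPM in P3, with P9 replicate 3 the highest of its group as for miR-708-3p. These values are descriptions over libraries that share their groups and totals.

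The list of microRNAs reported to respond to endoplasmic reticulum stress held 17 names, some of them spellings without an arm of a microRNA also listed with its arm. Of these names 11 matched a row, and 10 could be tested. The list does not record whether that stress raises or lowers each member, so its calls and medians have no set direction. At passage 9, 2 of the 10 rose and 0 fell, where 3.87% of all miRNAs were called higher and 3.42% lower, and the median log2 fold change was 0.12, against 0.062 over all. They were miR-222-3p (log2 fold change 1.07, SE 0.24, edgeR adjusted p = 0.0134) and miR-221-3p (0.93, SE 0.24, adjusted p = 0.0364), which in human cells repress the cell cycle inhibitor p27. Left-out libraries ended the first call in 3 and the second in 6 of 9 fits. miR-30c-2-3p, an arm induced in that stress, stood at 1.09 (edgeR adjusted p = 0.0679) and miR-455-3p at -0.35 (0.596). Under shear stress miR-30c-2-3p rose (log2 fold change 1.14, SE 0.33, edgeR adjusted p = 0.0341) and miR-222-3p fell (-0.92, SE 0.24, adjusted p = 0.0232), calls that held in 2 and 7 of 9 such fits. These were 2 of 10, where 20.5% of all were called, with a list median of 0.20, against 0.024 over all. Without FFSS replicate 2, miR-30c-2-3p stood at 0.73 (edgeR adjusted p = 0.128). miR-221-3p and miR-25-3p, at -0.66 and 0.77, did not pass there (edgeR adjusted p = 0.0688 and 0.0730). P9 against FFSS gave 2 higher and 1 lower, 3 of 10 where 34.4% of all were called.

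Of 20 microRNAs studied in osteoarthritic cartilage, 19 could be tested. At passage 9, 0 of the 19 rose and 1 fell, where 3.42% of all miRNAs were called lower, and the median log2 fold change was -0.24, against 0.062 over all. The 1 was miR-146a-5p, a brake on NF-kB signalling (log2 fold change -3.82, SE 0.99, edgeR adjusted p = 0.0419). It had 15.8, 15.5 and 47.6 CPM in P9, 17002, 650.2 and 3853 CPM in FFSS and 401, 399 and 392 CPM in P3, so the FFSS libraries lay far apart. The passage 9 call held in 3 of the 9 fits that leave out 1 library, all 3 without an FFSS library. The arms of miR-140 stood at -1.12 and -0.86 and miR-145-5p, of smooth muscle and fibroblasts, at 1.04, none past the test (edgeR adjusted p = 0.0679, 0.0763 and 0.0788). Under shear stress 2 rose, miR-146a-5p (log2 fold change 4.20, edgeR adjusted p = 0.0198, and 2.20 with 0.0393 without FFSS replicate 1) and miR-9a-5p (1.21, 0.0464), whose counts cannot be told from those of miR-9b-3p and which stood at 0.69 without FFSS replicate 1 (adjusted p = 0.214). There 2 fell, miR-145-5p (-1.57, edgeR adjusted p = 0.00944) and miR-98-5p (-0.85, 0.0441), with a list median of 0.20, against 0.024 over all. These 4 of 19 stand beside 20.5% of all miRNAs. Of the 4 calls, that of miR-145-5p held in all 9 fits that leave out 1 library, and those of miR-146a-5p, miR-98-5p and miR-9a-5p in 5, 3 and 2. P9 against FFSS gave, of 19 where 34.4% of all were called, 1 higher, miR-145-5p, and 5 lower, among them miR-146a-5p, miR-149-5p and miR-140-3p.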

How the data were processed

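The deposited table gave a read count per miRNA row and library, per the file headers, and a TPM value, which equalled the CPM computed from the deposited count within 4.85e-05, so it holds no length term. Libraries were single-end small RNA libraries with inserts sized before sequencing, per the labels' protocols; the submitters' processing notes name Bowtie and the build Rnor_6.0. The sources used here give neither the counting program nor its miRNA annotation. No other row matched a miR-708 row within 10% or 5 reads in every library.

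Counts were tested with edgeR 4.0.16 (filterByExpr, 439 rows kept, TMM, robust quasi-likelihood fit of all 9 libraries without a covariate) and Benjamini-Hochberg adjustment, and again after summing the arms of each hairpin. Arm ratios, log2 of 5p over 3p counts with 0.5 added to each, were tested with limma 3.58.1. R was 4.3.3; DESeq2 1.42.0 was an alternative, and ViennaRNA 2.7.2 folded the duplexes. Named are the members, the 5 rows most like each, miR-28 and miR-151 arms, neighbouring and leading hairpins, and up to 4 members per list with the smallest p. The members and lists were chosen with earlier results of these data known. RefSeq held sequences for 578 of the 726 rows. Rows predicted by the submitters entered the fits and are not named. Intervals cover counting error only. Leaving out single libraries for the called list members was added after the values were seen.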

Additional observations from a re-analysis of the deposited data

How the results depend on the processing

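Of the results for miR-708, the summed arms and miR-708-3p in P9 against P3 and P9 against FFSS kept their direction and call in all 20 alternatives each, and miR-708-3p in FFSS against P3 and miR-708-5p in P9 against FFSS stayed not called in all 20. miR-708-5p in P9 against P3 lost its call with a mean of at least 50 counts (log2 fold change -1.83, adjusted p = 0.0633) and on log2(CPM + 1) (-2.02, 0.0501), and ranged from -2.20 to -1.56 with 1 library left out. In FFSS against P3 miR-708-5p passed with no filter (-1.43, adjusted p = 0.0437), in DESeq2 (-1.29, 0.0485) and with only the 2 groups fitted (-1.31, 0.0428), and ranged from -1.78 to -1.07 with 1 library left out. The sum in FFSS against P3 was 0.069 with upper-quartile factors and -0.47 to 0.083 with 1 library left out. The arm ratio in FFSS against P3 passed with only the 2 groups fitted (-1.68, adjusted p = 0.0199). With 1 library left out it ranged from -2.15 to -1.39 there, from 1.47 to 2.96 in P9 against FFSS and from -0.20 to 1.28 in P9 against P3. The permutation p of the sum over 3 groups was 0.0536 on CPM and 0.0143 to 0.0679 with 1 library left out, and that of the 5p share 0.00714 to 0.289. The cause of these changes was not tested.

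The number of miRNAs called was 32 for P9 against P3 (16 to 51 with 1 library left out), 90 for FFSS against P3 (36 to 147) and 151 for P9 against FFSS (109 to 203). P9 against FFSS had 99 higher and 52 lower, and 94 and 77 with upper-quartile factors, which moved the median of all miRNAs by -0.11 there. Deviations of same-numbered replicates from their group means correlated at -0.50 to 0.13. With so few libraries per group this cannot show whether the numbers pair libraries, and the labels do not say. The numbers are used here as names only. With the replicate block miR-708-5p in P9 against P3 stood at -2.01 (adjusted p = 0.0722), and 51 miRNAs were called in FFSS against P3. The lowest depth, in FFSS replicate 1, leaves 27 reads of miR-708-5p.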
